A study of Mus musculus with 26 samples.

Results

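The PAR bZIP factors Dbp, Tef and Hlf, the repressor Nfil3, and the paired repressors Bhlhe40 and Bhlhe41 were followed in lung RNA of mice that had received multiwalled carbon nanotubes. These 6 genes were measured by 8 probes among 55681 on the array, and all 8 probes passed the filter on signal above background. They are 6 of 22950 features tested, of which 14838 carry a gene symbol. The genes were chosen by name, with their log2 lung to reference ratios across the 5 groups and their movement together within groups already known from earlier work on these data. Their differences between groups are therefore given as a description without p-values, and members past the threshold of the fit over all features are counted only beside the share of all features past it.

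Dbp, Tef and Hlf encode activators that bind the D-box, a short palindromic DNA element, and their transcription is driven in daily waves by the core circadian loop. Nfil3 (E4BP4) binds the same element and represses it, and in most tissues its daily peak lies opposite to that of Dbp. Bhlhe40 and Bhlhe41 (DEC1 and DEC2) encode basic helix-loop-helix repressors that bind the E-box used by the CLOCK and BMAL1 activators; both are also transcription factors of alveolar macrophages, and Bhlhe40 responds to hypoxia and cytokines.

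The mice were MutaMouse, a transgenic strain made for mutation assays, aged about 12 weeks and kept on a 12-hour light and dark cycle. Nanotubes named NM-401 or Mitsui XNRi-7, suspended in mouse serum, were instilled into the trachea once a week for 4 weeks at 42.7 µg (low) or 128 µg (high) per mouse, and lungs were taken 56 days after the last dose. The labels do not say whether these amounts are per instillation or in total, nor at what hour tissue was taken. They describe the mice as female and the controls as given olive oil by gavage, whereas the series' design text says male mice and vehicle control. If the gavage record holds, instillation itself cannot be told apart from the nanotubes in any comparison with control. Since the hour is not given, different hours of collection between groups cannot be told apart from exposure for genes with a daily rhythm.

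Each of the 5 groups (control and the 2 doses of either nanotube) held 5 animals with separate identifiers, so spread within a group is spread between animals. Lung RNA (Cy5) was hybridised against a universal mouse reference RNA (Cy3) on 4 slides holding 26 arrays; animal 5 of Mitsui low was measured on 2 of them, and its values were averaged. Where 4 values follow in 1 sentence without names, they stand in the order NM-401 low and high, then Mitsui low and high. A level below is the log2 ratio of lung to reference, and a difference is between group means of that ratio; levels of separate genes cannot be ranked against each other on this scale. In whole lung, fewer cells of a type and less RNA per cell cannot be told apart. Lung markers were above background in all 25 animals (Sftpc 7.40 to 8.33, Ager 5.46 to 5.99), and the heart muscle gene Myh6 ranged from 1.54 to 6.37.

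By the loess ratios used below, Dbp and Tef moved together within groups (r = 0.67), and Bhlhe41 moved with Bhlhe40. Dbp and Bhlhe41 stood at 0.44. Tef and Bhlhe41 did not move together by these ratios (r = 0.01), so the genes printed here are not taken as 1 set. That last value depended on the setting. It was 0.32 with slide means removed, 0.26 with Feature Extraction's ratios and 0.72 with arrays centred on their median in place of loess. The 250 bases before the annotated start of Dbp, of Tef (which has 2 annotated starts) and of Bhlhe41 are printed from RefSeq, build GRCm38.p6. They are read 5′ to 3′ on the gene's own strand. They lie at chr7:45704997-45705246 (plus strand), chr15:81802423-81802672 (plus), chr15:81811164-81811413 (plus) and chr6:145865421-145865670 (minus). Capitals mark the E-box CACGTG.
Dbp: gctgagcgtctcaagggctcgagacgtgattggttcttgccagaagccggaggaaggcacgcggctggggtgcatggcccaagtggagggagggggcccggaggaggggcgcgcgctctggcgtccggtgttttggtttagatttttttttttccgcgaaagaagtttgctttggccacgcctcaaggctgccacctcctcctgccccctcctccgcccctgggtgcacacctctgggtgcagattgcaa
Tef, first start: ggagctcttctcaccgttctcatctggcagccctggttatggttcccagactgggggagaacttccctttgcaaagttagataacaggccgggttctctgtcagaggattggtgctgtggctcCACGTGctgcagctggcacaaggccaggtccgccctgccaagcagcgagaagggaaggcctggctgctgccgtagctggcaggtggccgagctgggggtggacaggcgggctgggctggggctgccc
Tef, second start: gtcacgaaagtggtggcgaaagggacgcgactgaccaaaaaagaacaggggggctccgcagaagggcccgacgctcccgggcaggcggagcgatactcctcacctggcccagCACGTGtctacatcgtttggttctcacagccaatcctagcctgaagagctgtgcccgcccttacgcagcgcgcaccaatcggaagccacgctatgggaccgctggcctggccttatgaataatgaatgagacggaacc
Bhlhe41: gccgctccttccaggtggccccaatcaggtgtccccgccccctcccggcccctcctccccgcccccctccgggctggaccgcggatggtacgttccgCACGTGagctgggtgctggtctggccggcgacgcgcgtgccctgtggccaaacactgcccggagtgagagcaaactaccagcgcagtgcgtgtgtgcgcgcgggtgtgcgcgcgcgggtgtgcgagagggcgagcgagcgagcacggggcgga
Windows were searched on both strands for the E-box CACGTG, the related CACGTT, the D-box TTATGTAA or TTACGTAA and the cyclic AMP response element TGACGTCA; none of these overlaps another as searched. Promoter entries matched 5 of the 6 genes, Bhlhe40 being the exception. An E-box stood 127 bases before the first start of Tef, 138 before the second, and 153 before the start of Bhlhe41. Hlf held TGACGTCA 9 bases before its start, and the Dbp and Nfil3 windows held none of the letters searched. Of all 32851 windows of this length, 6.02% held CACGTG, 3.85% CACGTT, 0.931% a D-box and 1.55% TGACGTCA. These matches describe letters in a window and not binding.

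Dbp was the member with the widest range. In control lungs its log2 ratio to reference was -2.82, -3.05, -1.72, -0.67 and -1.60 in animals 1 to 5. With NM-401 low it was -2.45, -3.05, -2.04, -1.97 and -2.65, and with NM-401 high -1.75, -2.36, -1.22, -3.03 and -1.72. Every NM-401 value lay inside the range of the controls, in which animal 4 stood highest. With Mitsui low the ratio was -0.84, -0.90, -0.54, 0.01 and -0.37. With Mitsui high it was 0.02, -0.06, 0.90, 0.30 and 0.13. All 5 Mitsui high animals stood above all 5 controls, and 3 of 5 Mitsui low animals did, control 4 being the animal they overlapped.

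On the linear scale Dbp was 4.69-fold its control level in Mitsui high lungs (95% interval 2.79 to 7.86; log2 difference 2.23, SE 0.36). In Mitsui low it was 2.73-fold (1.63 to 4.57; log2 1.45). The NM-401 differences were small against this spread, at -0.46 in the low and -0.04 in the high group with the same SE. Without control 4 the Mitsui high difference was 2.55 and the NM-401 high difference 0.28. The order of group means was NM-401 low, NM-401 high, control, Mitsui low, Mitsui high; the lowest 3 lay within 1 standard deviation (SD) of their neighbours, while the steps from control to Mitsui low and on to Mitsui high were 1.97 and 2.07 pooled SDs, with overlapping ranges. Within slides that held both groups, Dbp was higher in Mitsui high on 4 of 4 (0.61 to 3.21) and in Mitsui low on 3 of 3 (1.08 to 3.06). A separate Dbp probe gave 1.38 and 2.10 for the 2 Mitsui doses, and the 2 probes correlated at r = 0.998 over 25 animals.

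**Figure D1:**
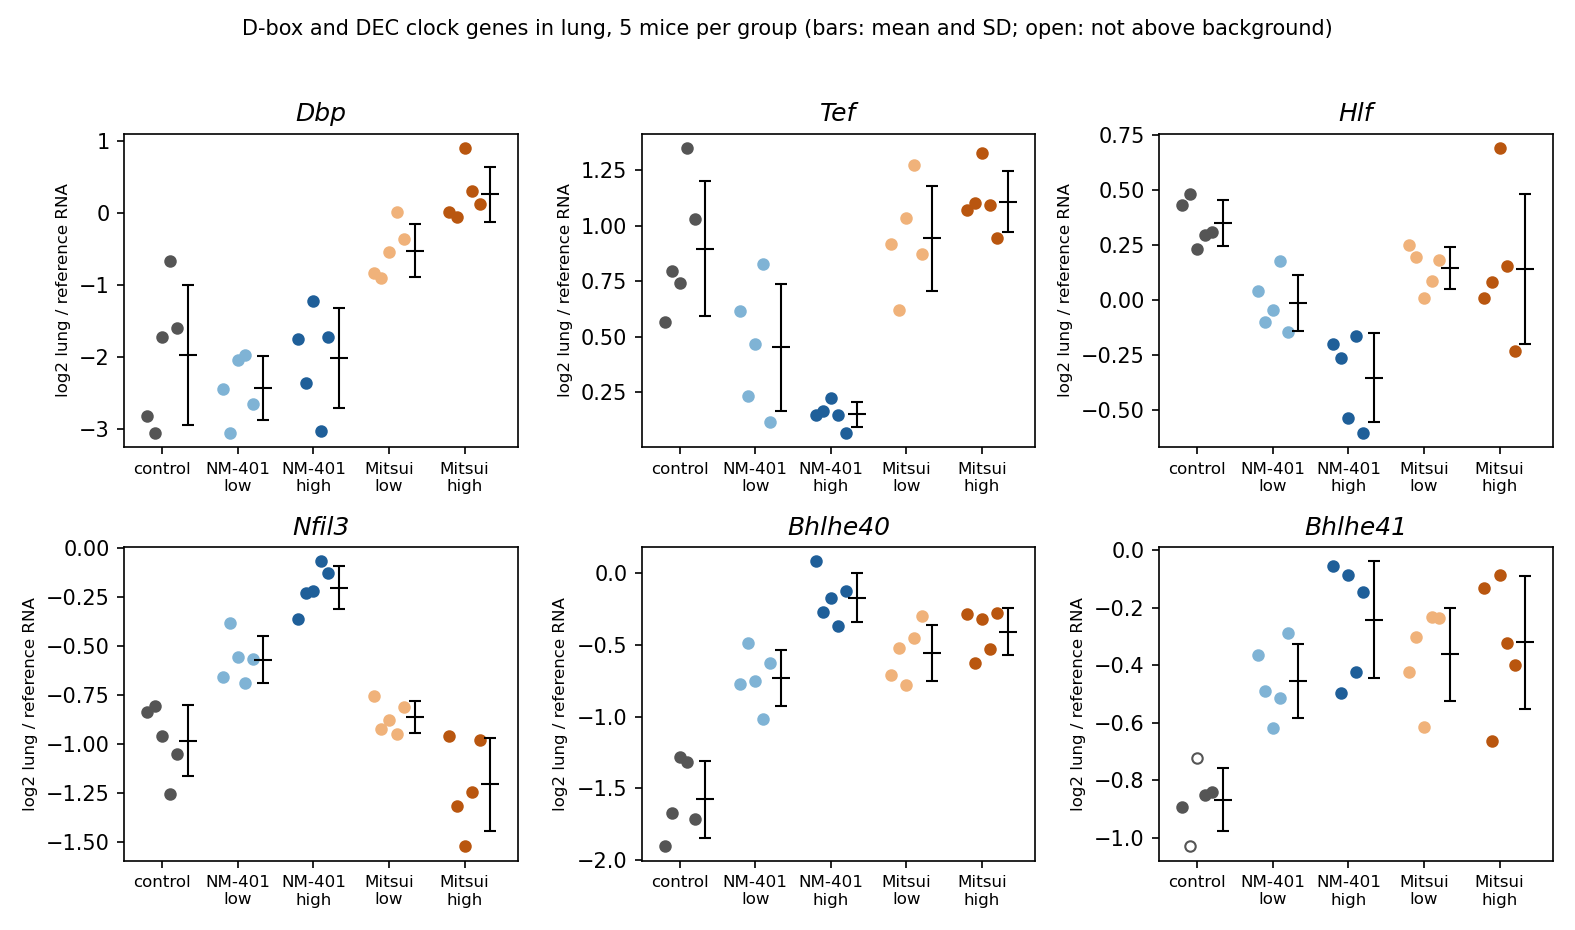
Log2 ratio of lung to reference RNA (y axis) for each of the 6 genes in each of 5 animals per group (x axis); black marks are the group mean and SD, and open symbols are spots not well above background. Dbp stood apart in the Mitsui groups, Tef and Hlf were lowest and Nfil3 highest with NM-401 high, and Bhlhe40 and Bhlhe41 were higher than control in all 4 exposures.

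Tef, another PAR bZIP activator, was lowest in the NM-401 high lungs. Control lungs had log2 ratios of 0.57, 0.80, 0.74, 1.35 and 1.03. NM-401 low lungs had 0.62, 0.24, 0.47, 0.83 and 0.11, and 3 of these 5 were below every control. NM-401 high lungs were tightly grouped at 0.15, 0.17, 0.22, 0.15 and 0.07, all below every control and below 4 of the 5 NM-401 low animals. Mitsui low lungs had 0.92, 0.62, 1.03, 1.27 and 0.87, and Mitsui high lungs 1.07, 1.1, 1.33, 1.09 and 0.95. Both Mitsui groups overlapped the controls.

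The Tef difference from control was -0.45 (SE 0.14) with NM-401 low and -0.75 with NM-401 high, which is 0.596-fold on the linear scale (95% interval 0.491 to 0.723). With arrays centred on their median in place of loess the NM-401 high difference was -0.41, beside a median over all features of 0.17. With loess the Tef difference was 0.05 with Mitsui low and 0.21 with Mitsui high. Under median centring these became -0.20 and -0.02, beside -0.14 and -0.13 over all features, so no direction is given for Mitsui. The order of means was NM-401 high, NM-401 low, control, Mitsui low, Mitsui high, with steps of 1.46, 1.51, 0.17 and 0.85 pooled SDs, and the ranges of all neighbours overlapped. On slides holding both groups Tef was below control with NM-401 high on 3 of 3 (-1.24 to -0.59) and with NM-401 low on 3 of 4 (-0.88 to 0.03).

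Hlf, the third activator, was below its control mean in both NM-401 groups. The controls were at 0.43, 0.48, 0.23, 0.30 and 0.31. NM-401 low animals were at 0.05, -0.10, -0.04, 0.18 and -0.14, and NM-401 high animals at -0.20, -0.26, -0.53, -0.16 and -0.60. The 3 groups did not overlap, the NM-401 high animals all lying below the NM-401 low animals and these below the controls. Mitsui low animals were at 0.25, 0.20, 0.01, 0.09 and 0.18. Mitsui high animals were at 0.01, 0.08, 0.69, 0.15 and -0.23, so animal 3 was above every control while the other 4 were below every control.

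The Hlf difference was -0.36 (SE 0.12) with NM-401 low and -0.70 with NM-401 high, 0.615-fold (0.518 to 0.729), and -0.21 at each Mitsui dose. Feature Extraction's own log ratios gave -1.09 for NM-401 high, over 1.5 times the loess value. Means ran in the order NM-401 high, NM-401 low, Mitsui high, Mitsui low, control; the first step was 2.01 pooled SDs without overlap, and the later steps were 0.60, 0.01 and 2.06 with overlapping ranges. Hlf was lower than control on every shared slide with NM-401 low (4 of 4), NM-401 high (3 of 3) and Mitsui low (3 of 3), and on 3 of 4 with Mitsui high.

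Markers of the cells of the gas exchange surface moved in both directions. Lower calls made up 8%, 16.4%, 10.4% and 11% of all features in the 4 exposures, and higher calls 8.95%, 18.4%, 10.6% and 12.7%. Of 8 alveolar type 1 markers tested, 2 were lower with NM-401 low, 5 with NM-401 high (and 1 higher), and 3 at each Mitsui dose (limma adjusted p under 0.05). The mean log2 ratio of this list was 4.20 to 4.64 in controls and 3.89 to 4.17 with NM-401 high. Of 11 endothelial markers, 2, 7, 2 and 3 were lower in the 4 exposures, and the list mean was 4.66 to 4.88 in controls and 3.99 to 4.44 with NM-401 high. Of 7 alveolar type 2 markers, 3, 4, 5 and 4 were higher and 0 lower. Each marker of the type 1 and endothelial lists was above background in at least some animals. Their part in the lower Tef and Hlf values was not tested.

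Nfil3, which competes with the activators for the D-box, was above its control range in every NM-401 animal. Control lungs had log2 ratios of -0.84, -0.81, -0.96, -1.26 and -1.05. NM-401 low lungs had -0.66, -0.38, -0.56, -0.69 and -0.57, and NM-401 high lungs -0.36, -0.23, -0.22, -0.07 and -0.13. The 3 groups were separate, each NM-401 high animal lying above each NM-401 low animal. Mitsui low lungs had -0.76, -0.93, -0.88, -0.95 and -0.81 and Mitsui high lungs -0.96, -1.32, -1.52, -1.25 and -0.98. Both overlapped the controls, and the Mitsui high animals all lay below the Mitsui low animals.

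Nfil3 was 1.33-fold its control level with NM-401 low (95% interval 1.16 to 1.53; log2 0.41, SE 0.10, and 0.24 under median centring) and 1.72-fold with NM-401 high (1.49 to 1.98; log2 0.78). With Mitsui low the log2 difference was 0.12 (-0.09 under median centring), and with Mitsui high it was -0.22. Over all features, median centring gave a median of -0.11 with NM-401 low and -0.14 with Mitsui low. The order of means was Mitsui high, control, Mitsui low, NM-401 low, NM-401 high. The first 2 steps were 1.05 and 0.85 pooled SDs with overlapping ranges, and the last 2 were 2.86 and 3.19 with none. On shared slides Nfil3 was above control on 4 of 4 with NM-401 low (0.26 to 0.70) and 3 of 3 with NM-401 high (0.60 to 1.16).

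Bhlhe40 was higher than control in all 20 exposed lungs. Controls had log2 ratios of -1.91, -1.67, -1.28, -1.32 and -1.72. With NM-401 low they were -0.77, -0.49, -0.75, -1.02 and -0.63, and with NM-401 high 0.08, -0.27, -0.17, -0.37 and -0.12. The highest control lay below the lowest NM-401 animal, and the 2 NM-401 doses did not overlap. Mitsui low values were -0.71, -0.52, -0.78, -0.45 and -0.30. Mitsui high values were -0.28, -0.63, -0.32, -0.53 and -0.28. The 2 Mitsui doses overlapped each other and neither overlapped the controls.

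The Bhlhe40 difference was 0.85 (SE 0.12) with NM-401 low, 1.41 with NM-401 high, 1.02 with Mitsui low and 1.17 with Mitsui high. These are 1.80-fold (95% interval 1.51 to 2.15), 2.66-fold (2.23 to 3.17), 2.03-fold (1.71 to 2.42) and 2.25-fold (1.89 to 2.69) of control. From the lowest mean the order was control, NM-401 low, Mitsui low, Mitsui high, NM-401 high. Control was 3.59 pooled SDs below the next group, and the other neighbours were 0.90, 0.83 and 1.43 apart with overlapping ranges. It was higher on every shared slide in each exposure, from 0.57 to 1.59.

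Bhlhe41 was also higher than control in all 20 exposed lungs. Its signal was well above background in 23 of 25 animals, the exceptions being control 2 and control 3. The controls read -0.89, -1.03, -0.72, -0.85 and -0.84. NM-401 low animals read -0.36, -0.49, -0.62, -0.51 and -0.29, and NM-401 high animals -0.06, -0.50, -0.09, -0.42 and -0.15. Each of these 10 animals stood above each control. Mitsui low animals read -0.42, -0.30, -0.62, -0.23 and -0.24, and Mitsui high animals -0.13, -0.66, -0.09, -0.32 and -0.40. These too stood above every control, and all 4 exposed groups overlapped one another.

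Bhlhe41 differed from control by 0.41 (SE 0.11) with NM-401 low, 0.62 with NM-401 high, 0.51 with Mitsui low and 0.55 with Mitsui high. The largest of these is 1.54-fold (95% interval 1.32 to 1.80). Feature Extraction's ratios, made without the offset of 50 added here, gave 0.89, 1.38, 1.08 and 1.12. Its order of means was that of Bhlhe40, with control 3.43 pooled SDs below the next group and the 4 exposed groups within 0.64 of their neighbours. A separate Bhlhe41 probe was well above background in only 1 of 5 controls and in 20 of 25 animals, so its differences from control are not given.

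Markers of recruited macrophages were higher in the same animals as Bhlhe40 and Bhlhe41. Of 11 tested, 9, 10, 9 and 9 were higher in the 4 exposures, and none was lower, beside 8.95%, 18.4%, 10.6% and 12.7% of all features higher. The list's mean log2 ratio was 0.12 to 0.36 in controls, 1.54 to 2.39 with NM-401 low, 2.35 to 3.10 with NM-401 high, 2.00 to 2.37 with Mitsui low and 1.67 to 2.56 with Mitsui high. Alveolar macrophage markers were mixed, with 3, 3, 4 and 2 of 12 higher and 0, 5, 2 and 3 lower. Within groups the recruited macrophage list correlated with Bhlhe40 at r = 0.35, with Bhlhe41 at 0.18, with Nfil3 at 0.59 and with Hlf at -0.61 over 25 animals. With Tef r was -0.39 and with Dbp -0.07. These values share each animal's array. Stronger correlations stood with other lists for Bhlhe40 (B and plasma cell markers, -0.47) and for Bhlhe41 (fibroblast markers, -0.50). The part of these cells in the members' values was not tested.

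**Figure D2:**
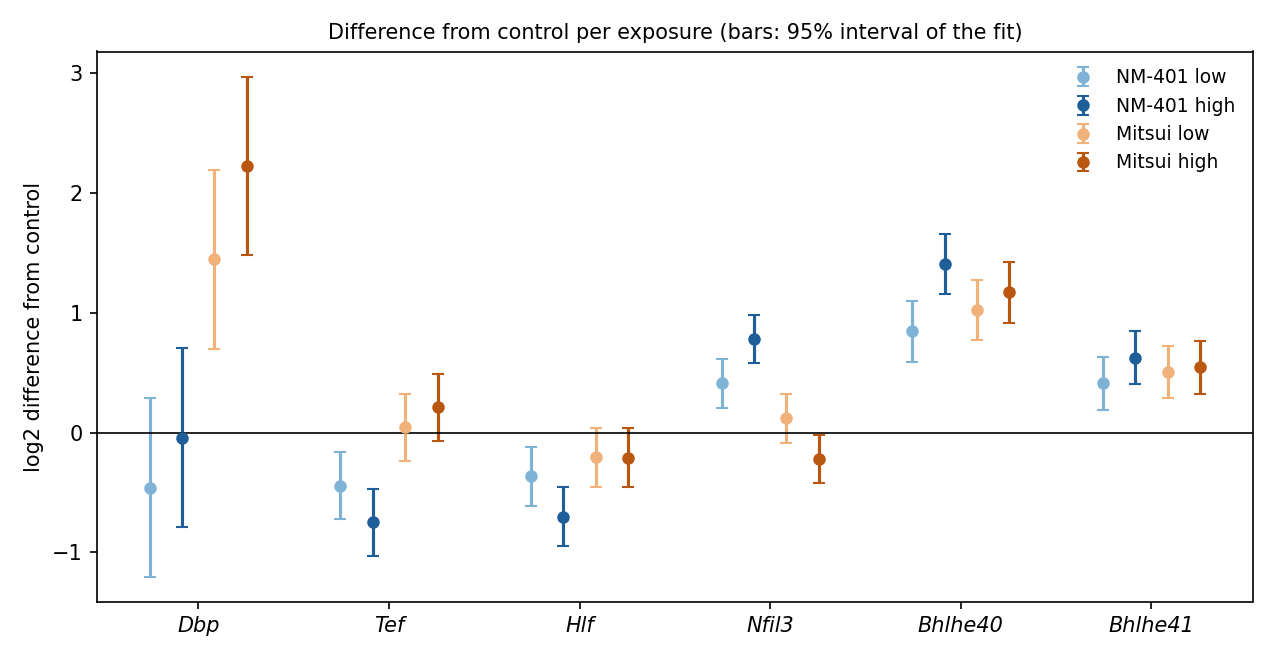
Log2 difference from control (y axis) for each gene (x axis) in the 4 exposures; points are fitted differences and bars their 95% intervals. Dbp reached 2.23 with Mitsui high and -0.04 with NM-401 high, Nfil3 0.78 with NM-401 high and -0.22 with Mitsui high, and Bhlhe40 0.85 to 1.41 in all 4.

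Counted at a Benjamini-Hochberg adjusted p under 0.05 in limma, 3 of 6 members were higher (Nfil3, Bhlhe40, Bhlhe41) and 2 lower (Tef, Hlf) with NM-401 low, where 16.9% of all features were called, 8.95% higher and 8% lower. The same 3 and 2 were counted with NM-401 high, where 34.8% were called (18.4% higher, 16.4% lower). With Mitsui low 3 were higher (Dbp, Bhlhe40, Bhlhe41) and none lower, beside 20.9% (10.6% higher, 10.4% lower). With Mitsui high the same 3 were higher, beside 23.7% (12.7% higher, 11% lower). The rule that chose the genes used these comparisons, so nothing is read from the counts. Groups did not overlap for 4, 5, 2 and 3 members in that order, beside 11.6%, 22.5%, 16.1% and 14.6% of all features. The members' median differences were 0.02, 0.29, 0.31 and 0.38, and those of all features lay between -0.0047 and -0.001. With NM-401 low, Hlf was not counted without control 1, 2, 4 or 5 or NM-401 low 2, 3 or 5, nor with Feature Extraction's ratios or without the filter, and Tef not without control 4 or 5 or NM-401 low 2 or 5. With median centring only Bhlhe40 and Bhlhe41 with NM-401 high were counted in these 4 comparisons.

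The 4 comparisons share their control animals, so values of the 2 nanotubes are set side by side through a direct contrast, which was added after the data had been seen. At the high dose, NM-401 minus Mitsui was -2.27 for Dbp (SE 0.36), -0.96 for Tef (0.14), -0.49 for Hlf (0.12) and 1.00 for Nfil3 (0.10). For Bhlhe40 it was 0.24 (95% interval -0.02 to 0.49) and for Bhlhe41 0.08 (-0.14 to 0.30). Dbp, Tef and Nfil3 did not overlap between these groups, the first 2 being lower and Nfil3 higher with NM-401, and the other 3 overlapped. Under median centring in place of loess the 6 differences were -1.63 for Dbp, -0.39 for Tef, -0.25 for Hlf, 1.39 for Nfil3, 0.68 for Bhlhe40 and 0.31 for Bhlhe41. The median difference of all features in this contrast was then 0.33, against 0.0016 with loess. In this contrast 1 member was counted higher and 3 lower, beside 0.793% of all features (0.462% higher, 0.331% lower; 2.67% without overlap). Hlf was counted in 4 of 25 fits with an animal left out (those without NM-401 low 4, NM-401 high 2, NM-401 high 4 or Mitsui high 5), and under median centring no member was. At the low dose the differences were -1.91 for Dbp, -0.49 for Tef, -0.16 for Hlf, 0.29 for Nfil3, -0.18 for Bhlhe40 and -0.09 for Bhlhe41, and limma called 0 of the 22950 features there (1287 at an unadjusted p under 0.05). At that dose Dbp and Nfil3 did not overlap, beside 1.26% of features.

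Between doses, NM-401 high was above NM-401 low by 0.56 for Bhlhe40 and 0.37 for Nfil3, both without overlap and both counted, beside 3.84% of features called and 3.69% without overlap. For Hlf the difference was -0.34, also without overlap. For Mitsui, high minus low was 0.78 for Dbp (95% interval 0.04 to 1.53), -0.34 for Nfil3 (-0.54 to -0.14) and between -0.00 and 0.17 for the other 4. In limma 0 features were called between the Mitsui doses, with 1244 at an unadjusted p under 0.05; Nfil3 was the 1 member without overlap, beside 1.1%.

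The 6 genes also moved within groups, as seen in each animal's deviation from its group mean. Over 25 animals Dbp and Tef deviated together (r = 0.67, rho = 0.65), with a positive r in 5 of 5 groups, lowest with NM-401 high (0.19). Dbp and Nfil3 deviated in opposite directions (r = -0.68, rho = -0.59), as did Tef and Nfil3 (r = -0.62, rho = -0.68), each with a negative r in 5 of 5 groups. Bhlhe40 and Bhlhe41 deviated together (r = 0.61, rho = 0.61, 5 of 5 groups). With slide means also removed, Bhlhe40 with Bhlhe41 was 0.40 and Dbp with Tef 0.76. These correlations are descriptions with no p, since movement within groups was part of how the genes were chosen.

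The sign of the Nfil3 relations depended on how dye bias was removed. With arrays centred on their median and no loess, Dbp with Nfil3 was 0.61 and Tef with Nfil3 0.89, and all 15 pairs of members were positive, from 0.51 to 0.92. Feature Extraction's ratios gave -0.66 and -0.64 and the authors' deposited values -0.69 and -0.72 for the same 2 pairs. With slide means also removed they were -0.66 and -0.81, and without the 2 animals farthest from the median of the first gene -0.57 and -0.51. Cardiac muscle markers moved with the same genes: the mean of 7 such markers correlated with Dbp at -0.50, with Tef at -0.52 and with Nfil3 at 0.51 within groups, and its level ranged from 0.43 to 3.18 over the animals. The mean of 6 B and plasma cell markers correlated with Dbp at -0.68, with Tef at -0.35 and with Nfil3 at 0.48, and ranged from -0.76 to 0.51 among controls. The mean of 8 neutrophil markers correlated with Dbp at -0.45, with Tef at -0.65 and with Nfil3 at 0.40, and ranged from 1.11 to 2.29 among controls. Other marker lists also correlated with Nfil3, at 0.59 for recruited macrophages, -0.49 for smooth muscle, 0.43 for eosinophils, basophils and mast cells, and 0.41 for T, NK and innate lymphoid cells. All marker correlations given here used loess ratios and were not repeated under median centring. The part of heart tissue or of any of these cells in the relations was not tested.

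Hlf showed no common direction with its relatives across the groups. Its r with Dbp was -0.08 and with Tef 0.26 over 25 animals. With Tef it was 0.98 in NM-401 low and 0.99 in Mitsui high but -0.41 in controls and -0.59 in Mitsui low, each from 5 animals. Its r of -0.45 with Nfil3 was -0.06 without the 2 animals farthest from the median.

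**Figure D3:**
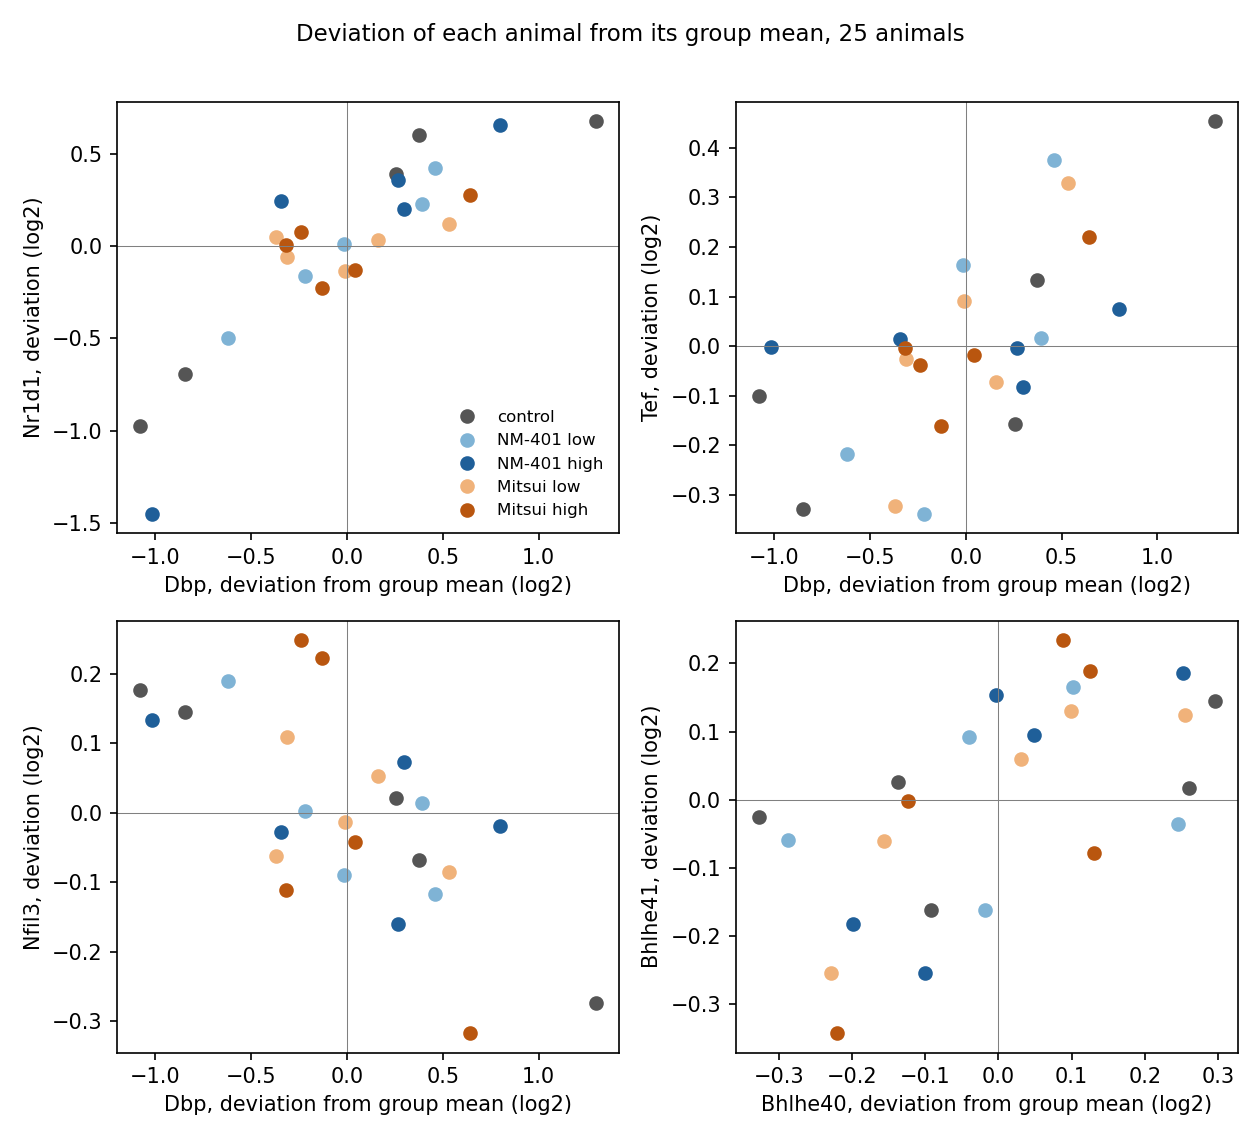
Deviation of each of 25 animals from its group mean in log2 units, one gene per axis, coloured by group, from loess ratios. Dbp deviates with Nr1d1 (r = 0.87) and Tef (0.67) and opposite to Nfil3 (-0.68, which turns to 0.61 under median centring). Bhlhe40 deviates with Bhlhe41 (0.61, and 0.40 with slide means also removed).

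Among 14832 other gene features with a symbol, those whose deviations were most like Dbp's were Nr1d1 (r = 0.87), Nr1d2 (0.84) and Per3 (0.78), all genes of the core clock. Nr1d1 and Nr1d2 encode the REV-ERB nuclear receptors and Per3 a period protein. For Tef they were Cry2 (0.85), which encodes a cryptochrome of the clock, Ppp4r1 (0.81), a protein phosphatase 4 subunit, and Camkk1 (0.79), a calmodulin-dependent kinase kinase. For Hlf they were Sipa1l2 (0.82), Thra (0.81), a thyroid hormone receptor, and Tgfbr3 (0.80), a TGF-beta co-receptor.

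Nfil3 was most alike to Dock2 (r = 0.85), a Rac activator of leukocytes, Cd80 (0.80), a costimulatory ligand of antigen-presenting cells, and Slc22a4 (0.75), an organic cation transporter. Bhlhe40 was most alike to Cd63 (0.79), a lysosomal tetraspanin, Slc39a1 (0.79), a zinc importer, and S100a1 (0.78), a calcium-binding protein. For Bhlhe41 they were Myo9b (0.82), an unconventional myosin, Cnih2 (0.80) and Arl4c (0.78), a small GTPase. The measure was Pearson's r of deviations from group means over 25 animals, and each pair of values comes from the same array. Picking the highest of 14832 values by itself favours a high r. With slide means also removed, r was 0.72, 0.69 and 0.60 for Bhlhe40's genes and 0.63 and 0.60 for Cnih2 and Arl4c, with no value for Myo9b. For the genes named beside the other members it was 0.77 to 0.88. These rankings use loess ratios and were not repeated under median centring.

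The genes of the core loop itself were read from a list of 15, of which 13 were tested and Cry1 and Ciart were not. With NM-401 low 4 were lower and 0 higher, with NM-401 high 7 and 0, with Mitsui low 4 and 1, and with Mitsui high 6 and 2, beside 16.9%, 34.8%, 20.9% and 23.7% of all features called. The list's median difference was -0.26, -0.19, -0.16 and -0.16. Under median centring, where the median standard error over features was 0.31, limma called 0 of the 13 in each exposure, with 3, 1, 2 and 4 at an unadjusted p under 0.05. Among the loop genes called with loess, the sign changed under it for Csnk1d (0.12) and Csnk1e (0.07), both in NM-401 high. The median of all features was 0.17 there, and both genes still lay below that median.

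Arntl, which encodes the activator BMAL1, was lower with both Mitsui doses. Its mean log2 ratio was 0.92 ± 0.18 (SD, n = 5) in controls, 0.82 ± 0.18 with NM-401 low, 0.83 ± 0.31 with NM-401 high, 0.29 ± 0.23 with Mitsui low and -0.06 ± 0.27 with Mitsui high. Every Mitsui animal was below every control. The difference was -0.64 with Mitsui low (SE 0.14, limma adjusted p = 0.00225) and -0.99 with Mitsui high (adjusted p = 2.58e-05), against -0.10 at each NM-401 dose (adjusted p = 0.687 and 0.654).

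Some of the genes that repress Arntl or close the loop were higher with Mitsui. Nr1d2, a repressor of Arntl, was higher by 0.76 with Mitsui high (SE 0.19, limma adjusted p = 0.00417), and Per3 by 0.36 with Mitsui low and 0.65 with Mitsui high (adjusted p = 0.0312 and 0.000347). Nr1d1 was at 0.05 ± 0.77 (SD, n = 5) in controls and 0.84 ± 0.19 with Mitsui high; its difference of 0.78 did not pass (adjusted p = 0.0757). Per2 showed 0.15 and 0.23 with the Mitsui doses and did not pass either. In the NM-401 groups none of Nr1d1, Nr1d2, Per2 and Per3 passed, with differences from -0.57 to 0.07.

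Arntl, Per3 and Nr1d2 also differed directly between the high doses, NM-401 minus Mitsui being 0.89 for Arntl (limma adjusted p = 0.00831), -0.58 for Per3 and -0.87 for Nr1d2 (both 0.0325). These were 3 of 13 loop genes, beside 0.793% of features. The Arntl call held in 25 of 25 fits with an animal left out. That for Per3 was lost without NM-401 high 1 or 3 or Mitsui high 2 or 3, and that for Nr1d2 without NM-401 high 1, 3 or 5 or Mitsui high 2, 3 or 4. With Feature Extraction's ratios the Per3 and Nr1d2 differences were -1.05 and -1.12 and did not pass. Under median centring the 3 were 1.24, -0.43 and -0.50 and none passed (Arntl and Per3 at an unadjusted p under 0.05). The median difference of all features in this contrast was then 0.33.

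Other loop genes were lower with both nanotubes by the loess fit. Rora, which encodes a nuclear receptor that activates Arntl, differed from control by -0.57, -0.67, -0.59 and -0.48 in the 4 exposures, without overlap with controls in any of them (limma adjusted p from 1.72e-06 to 0.000273). Clock, the partner of BMAL1, differed by -0.45, -0.54, -0.51 and -0.62, and Rorb by -0.42, -0.41, -0.38 and -0.31, all of them past the threshold. Per1, a period gene that also answers glucocorticoids, differed by -1.23 with NM-401 low and -1.39 with NM-401 high (limma adjusted p = 0.000668 and 3.73e-05), without overlap, and by -0.59 and -0.83 with Mitsui low and high (0.0683 and 0.00877). The Per1 difference between the nanotubes at the high dose, -0.56, did not pass (adjusted p = 0.2). Cry2 differed by -0.44 with NM-401 high (adjusted p = 0.0021) and by -0.01 with Mitsui high. Its difference between the nanotubes at the high dose, -0.43, did not pass (limma adjusted p = 0.0553).

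**Figure D4:**
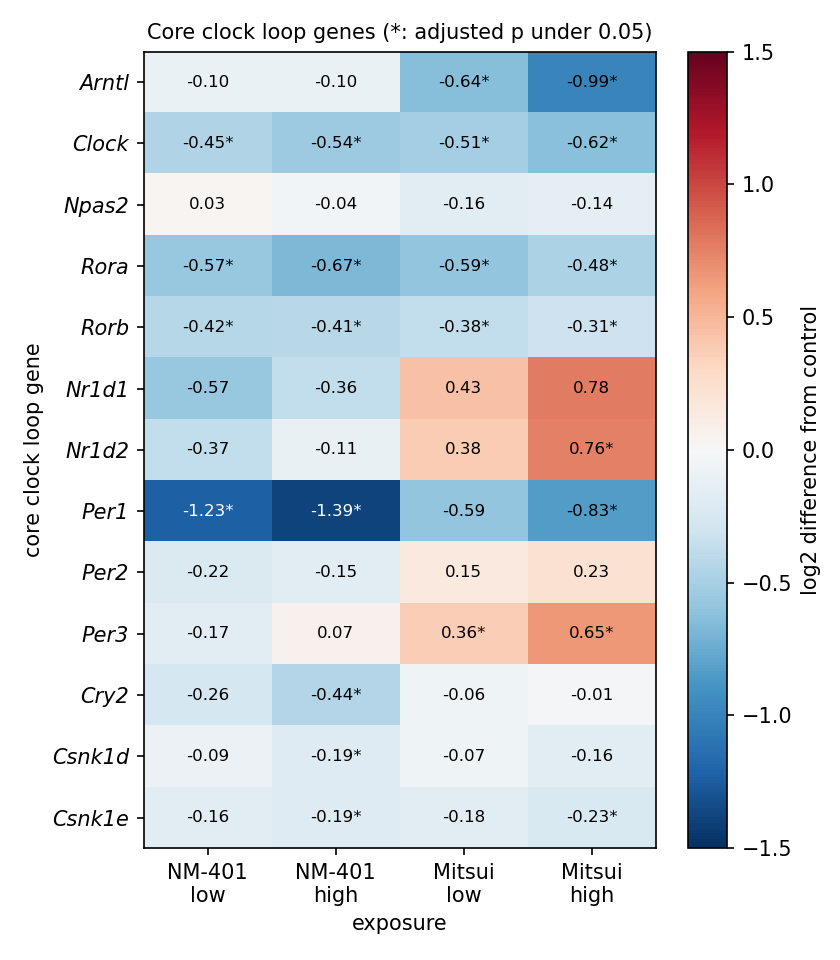
Log2 difference from control for 13 core clock loop genes (rows) in 4 exposures (columns), from loess ratios; colour and printed values give the difference, and stars mark a limma adjusted p under 0.05. Arntl is lower and Per3 higher in both Mitsui columns and Nr1d2 is higher in the Mitsui high column, while Per1 is lowest with NM-401 high (-1.39). Under median centring 0 of the 13 passed.

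Genes known to follow the PAR bZIP factors were few in lung, with 4 of 7 listed genes tested. Pdxk, which encodes pyridoxal kinase, was higher in all 4 exposures by 0.28 to 0.35 and passed in each. Por, the electron donor of cytochromes P450, was lower with NM-401 high (-0.45, limma adjusted p = 0.0054). Cyp2b10, a cytochrome P450, was lower with NM-401 high (-0.33) and Mitsui high (-0.23). Under median centring its NM-401 high difference was 0.05, beside a median over all features of 0.17. The list's median was -0.17, -0.31, 0.09 and 0.19 in the 4 exposures.

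Of 9 other clock output genes, 3, 5, 3 and 3 were higher in the 4 exposures, and 0, 0, 1 and 1 lower. Over all features 8.95%, 18.4%, 10.6% and 12.7% were higher and 8%, 16.4%, 10.4% and 11% lower. Cdkn1a, a cell cycle inhibitor, was higher in all 4 (0.48, 0.91, 0.70 and 0.54). Nampt, the rate-limiting enzyme of NAD salvage, was higher with NM-401 high (0.65), as was Noct (nocturnin; 0.46). Klf10 was the gene lower with Mitsui (-0.44 and -0.43). Of the 6 CCAAT enhancer binding proteins, which recognise DNA related to the D-box, Cebpe (0.43) and Cebpa (0.39) were higher with NM-401 high.

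Genes that answer glucocorticoids, a signal that sets Per1 and other clock genes, split in both directions. Of 14, 2, 4, 4 and 4 were higher and 6, 6, 5 and 6 lower in the 4 exposures. Beside this and the next 2 lists, 8.95%, 18.4%, 10.6% and 12.7% of all features were higher. Lower were 8%, 16.4%, 10.4% and 11%. The glucocorticoid list shares Per1 with the core loop list, Cdkn1a with the clock output list and Dusp1 with the immediate early list. Calls of these genes count in both lists. Klf9 differed by -0.93, -1.16, -0.64 and -0.72 and Zbtb16 by -1.39, -1.31, -0.76 and -0.75, whereas the metallothionein Mt2 was higher in all 4, by 0.85, 0.97, 1.35 and 1.05. Of 14 hypoxia response genes 1, 5, 3 and 4 were higher and 3, 4, 3 and 3 lower; Vegfa was lower in all 4 (-0.38, -0.64, -0.50 and -0.39) and Ankrd37 higher, by 0.80 with NM-401 high. Immediate early genes, which respond to handling within minutes, were also split, with 2, 2, 2 and 2 of 13 higher and 2, 5, 4 and 2 lower: Atf3 was higher in all 4 (1.05 to 2.29) and Jun lower in all 4 (-0.67 to -1.26). The part of these signals in the members' values was not tested.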

How the data were processed

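Lung RNA of 25 animals was measured against reference RNA on 26 Agilent arrays. Per the file headers, spots were quantified with Feature Extraction 11.0.1.1, which deposited median spot and background intensity per dye, the log10 ratio of Cy5 over Cy3, and flags for background, saturation and outliers. The authors' deposited matrix holds normalised log2 ratios; it correlated with the ratios used here at r of at least 0.988 on every array, and its software is not given in the sources used here.

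From the median intensities, background was corrected with normexp (offset 50), ratios were loess-normalised within arrays, and flagged outlier spots were left out, in limma 3.58.1 under R 4.3.3. A probe was kept if 4 or more animals of any group had it well above background, and the brightest represented its gene. Between 45.8% and 62.1% of spots were above background in Cy5; no read depth applies, and the number of arrays limits the precision.

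All 25 animals entered 1 limma fit with 5 groups and no covariates. Adjusted p-values are Benjamini-Hochberg over 22950 features, two-sided, at 0.05. Standard errors and 95% intervals come from this fit, and SDs from the animals. The limma step alone was also run on simulated data. Those values were drawn independently per feature, without array, slide or dye effects, so the run cannot bear on the normalisation.

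The members and the gene lists were chosen with earlier results of these data known. Named genes were the 6 members and, for each, the 3 gene features with the most similar deviations. From the lists, up to 4 called genes with the largest change per list and exposure could be named, and not all of them were. Among those left out were Adm (-0.91), Egr2 (1.74) and Dusp1 (-1.40), values with NM-401 high. Other named genes were chosen after their values were seen. The core loop list held Arntl, Clock, Npas2, Per1, Per2, Per3, Cry1, Cry2, Nr1d1, Nr1d2, Rora, Rorb, Ciart, Csnk1d and Csnk1e; some genes first listed are not reported here, and the list's counts leave them out. The fit did not pair animals by replicate number. Same-numbered animals' deviations correlated at -0.38 to 0.41, with means per number from -0.05 to 0.09. A weak correlation cannot exclude pairing. Alternatives were median centring, Feature Extraction's ratios, the authors' matrix, no filter, probe means, slide or replicate blocks, either repeated array, and leaving out each animal.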

Additional observations from a re-analysis of the deposited data

Results flagged for a closer look

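By loess ratios, Tef stood below its control mean in all 5 NM-401 high animals and above it in all 5 Mitsui high animals; the difference, NM-401 minus Mitsui, was -0.96. Under median centring it was -0.39, and the Mitsui high mean then differed from control by -0.02. All features then had a median of 0.33 in the first of these comparisons and -0.13 in the second. No p is given, because the gene was chosen for its pattern.

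The same contrast at the high dose was tested by limma for the core loop. Arntl differed by 0.89, Per3 by -0.58 and Nr1d2 by -0.87 (adjusted p 0.00831, 0.0325 and 0.0325), so their differences from control were unequal between the nanotubes by loess ratios; none of the 3 passed under median centring.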

How the results depend on the processing

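With median centring in place of loess, limma called 62, 1064, 74 and 121 features in the 4 exposures (NM-401 low and high, Mitsui low and high), against 3890, 7976, 4808 and 5448; the higher share of calls was then 83.9%, 89.4%, 83.8% and 86.8%. It called 0 of the core loop genes in each, against 4, 7, 5 and 8, and 0 features between the high doses (1356 at an unadjusted p under 0.05), against 182. The median difference of all features was then -0.11, 0.17, -0.14 and -0.13, and 0.33 between the high doses; the cause was not tested. Between the high doses 39 features were called with Feature Extraction's ratios, 94 without the filter and 510 with slide as a block.

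Leaving out 1 animal gave 2923 to 3998, 6943 to 8125, 4002 to 4970 and 4407 to 5648 features in the 4 exposures, and 3 to 4, 6 to 7, 4 to 6 and 6 to 9 core loop genes. Between the high doses it gave 6 (without Mitsui high 2) to 915 (without NM-401 high 2), and the count moved by over 1.5 times without NM-401 high 1, 2, 3 or 5, Mitsui low 4 or 5, or Mitsui high 2, 3, 4 or 5.

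With the replicate number as a block the counts were 3840, 7839, 4734, 5331 and 244, and no member's call changed. Over 840 alternative values of the members' differences from control, 826 moved by less than 1 SD between animals, 14 by more, and 0 called differences changed sign. Many of the 840 could not move, so the count overstates stability. Leaving out an animal of a group outside a comparison leaves that difference unchanged. Dropping the filter left the members' probes the same, since all 8 had passed it. Comparisons between the high doses, the other probes of Dbp and Bhlhe41, and leave-one-out counts of the core loop were added after seeing the data. Mean spot signals were not run, since the deposited columns used here are median signals. Control animals 2 and 3 were not well above background for Bhlhe41, which limits its differences.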
